A study of Homo sapiens with 4 samples.

Results

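Polyamine metabolism was followed through 10 genes in Hut78, an established human cell line that grew out of a cutaneous T-cell lymphoma, after exposure to the antiviral guanosine analogue ribavirin. The genes were chosen by symbol and by their place in the pathway, with earlier results of these data known. All 10 were found among the 25847 genes of the table. They were 4 genes of synthesis (ODC1, AMD1, SRM, SMS), 3 of catabolism (SAT1, SMOX, PAOX) and 3 of the antizyme system (OAZ1, OAZ2, AZIN1). The data are 4 Affymetrix Human Transcriptome Arrays of total RNA: untreated Hut78 cells gave 2 (control), and Hut78 cells exposed for 120 h to 50 µM ribavirin gave the other 2. All cells were grown in RPMI medium with fetal bovine serum, and the labels give no time for the control and no vehicle. Every value is a log2 probe set summary of the deposited table, so a change of 1 is a doubling on that scale. As all arrays come from 1 cell line, and no label says that same-group arrays came from separate cultures, the spread between them may be technical. These are bulk samples, in which a smaller number of cells with a transcript and less of it per cell cannot be told apart.

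Polyamines are small, positively charged molecules that bind nucleic acids and are needed for growth and translation in dividing cells, lymphocytes among them. Ornithine decarboxylase (ODC1) makes putrescine, and the synthases SRM and SMS extend it to spermidine and spermine with aminopropyl groups that AMD1 supplies from S-adenosylmethionine. Breakdown starts with acetylation by SAT1 or with direct oxidation by SMOX. Antizymes bind ODC1 protein and deliver it to the proteasome, and the antizyme inhibitor AZIN1 takes antizyme away from it. Much of this control acts on translation and protein stability, which RNA levels do not show.

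SAT1 was the polyamine gene that moved most, with a log2 change of 2.44 with ribavirin, while the log2 changes of the other 9 lay between -0.45 and 0.29. SRM and OAZ2 fell, by 0.38 and 0.45 on the log2 scale. The other 7 genes did not pass the test: ODC1, AMD1, SMS, SMOX, PAOX, OAZ1 and AZIN1. In all, 3 of 10 genes passed an adjusted p under 0.05 (limma over all genes, Benjamini-Hochberg), against 15.2% of all genes and 32.8% of the 10505 genes that lay above the background probe sets in at least 1 group. Upward calls were 1 of 10 (9.34% over all genes) and downward calls 2 of 10 (5.88%). The share of members called is thus near that of genes above background. By size, SAT1 ranked 24 of 25847 genes in order of log2 change from the highest. The members' median log2 change was 0.10, against -0.05 over all genes and 0.07 over those above background. In 9 of 10 genes both ribavirin arrays lay on one side of both control arrays, 6 higher and 3 lower, which held for 59.9% of all genes (24.1% higher and 35.8% lower) and for 76.4% of those above background (46.4% higher and 30.1% lower).

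**Figure D1:**
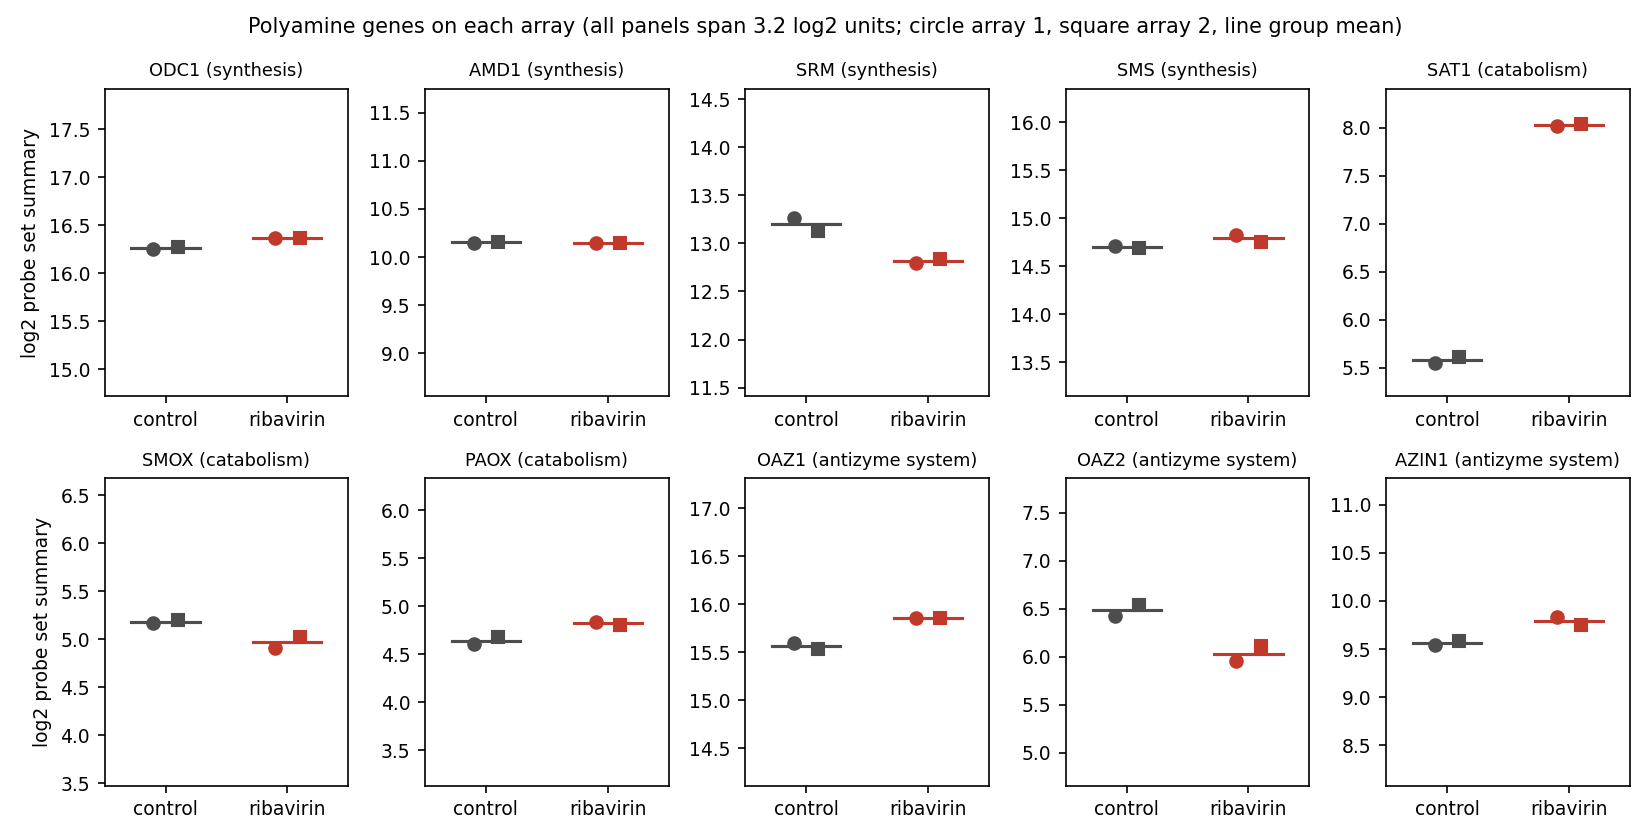
Log2 probe set summary of each of the 10 polyamine genes on each array (y axis, log2; x axis, group; circles array 1, squares array 2, lines group means). All panels span the same number of log2 units, so slopes can be compared: SAT1 goes from 5.58 to 8.02, and every other gene differs by 0.45 or less.

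The 2 arrays of a group differed little. Gene medians lay at 4.24 and 4.30 in control and at 4.20 and 4.21 in ribavirin arrays, and same-group arrays correlated at Pearson r = 0.998 across genes in both groups against 0.990 to 0.991 between groups (genes are not independent replicates). The highest background probe set had a mean of 5.20 in control and 4.95 in ribavirin arrays, and values at or below these are called the background range here. Of the T-cell markers, CD3D, CD3E, CD3G, CD247, LCK and ZAP70 lay above that range in both groups, CD4 in control only, and CD2 in neither. Of the 8 T-cell markers 6 fell with ribavirin, against 5.88% of all genes and 11% of those above background. Over all 8 the median log2 change was -0.58, and control means ran from 3.60 (CD2, which did not pass) to 11.84 (CD3D). Of 13 markers of B, myeloid, epithelial and fibroblast cells, 6 were in the background range in both groups (MS4A1, CD14, LYZ, CSF1R, COL1A1 and DCN). None of the 13 rose and 5 fell (limma), against 9.34% and 5.88% of all genes and 21.9% and 11% of those above background. At an unadjusted limma p under 0.05 were 8 of 13, against 29.5% of all genes and 52.8% of those above background. CD79A, CD79B, KRT8 and CDH1, which lay above background in both groups, fell with log2 changes of -1.40, -0.64, -1.36 and -0.86, and so did COL1A1 within the background range (-0.37). EPCAM (0.42, adjusted p = 0.0730) and MS4A1 (0.41, 0.0673) read higher with ribavirin without passing. The part of these shifts in the polyamine values was not tested.

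In the synthesis branch, 3 of 4 genes stayed within 0.11 log2 units of control. ODC1, the decarboxylase that makes putrescine, read 16.25 and 16.27 on the control arrays and 16.37 on both ribavirin arrays. The ribavirin arrays were the higher ones, by 0.11 (SE 0.07, 95% interval -0.07 to 0.28, adjusted p = 0.371), and the gene did not pass.

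AMD1, the S-adenosylmethionine decarboxylase, read 10.15 and 10.16 in control and 10.15 on both ribavirin arrays. Its log2 change was -0.005 (SE 0.07, adjusted p = 0.974), with a 95% interval of -0.18 to 0.17. SMS, which turns spermidine into spermine, read 14.72 and 14.69 in control and 14.83 and 14.75 with ribavirin. Its groups did not overlap, but the change of 0.09 (95% interval -0.10 to 0.27, adjusted p = 0.478) did not pass.

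SRM, which turns putrescine into spermidine, was the synthesis gene that fell. It read 13.26 and 13.13 in control and 12.80 and 12.83 with ribavirin. Both treated arrays were below both controls, by 0.30 to 0.47 across the 4 pairs of arrays. The log2 change was -0.38 (SE 0.08, 95% interval -0.59 to -0.18, adjusted p = 0.0354), a 1.30-fold lower level. The call did not hold when any 1 array was left out: the adjusted p was 0.143 and 0.0940 with control replicate 1 or 2 removed, and 0.157 and 0.119 with ribavirin replicate 1 or 2 removed, at log2 changes of -0.45 to -0.32. It also ended with arrays centred on their median (-0.32, adjusted p = 0.0862) and with the replicate number as a block (-0.38, adjusted p = 0.0599).

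SRM and SMS catalyse successive and chemically alike steps. SRM fell, while SMS read only slightly higher (0.09) and did not pass. Within each array, the log2 ratio of SMS over SRM, set to a control mean of 0, was -0.05 and 0.05 in control and 0.53 and 0.41 with ribavirin. The ratio shifted by 0.47, with no overlap between groups. An exact permutation test of 2 arrays against 2 gives a two-sided p of 0.333, the smallest this design allows, and the pair was chosen after the values were seen.

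ODC1 and SRM are textbook target genes of MYC-family factors, which bind the E-box CACGTG, so their start regions are shown. The windows run from 250 bases before to 50 bases after a RefSeq gene start (GRCh38.p14), 5′ to 3′ on the gene's strand, with CACGTG in capitals. The SRM window is chr1:11059969-11060268, minus strand, and the ODC1 window is chr2:10447963-10448262, minus strand.
SRM: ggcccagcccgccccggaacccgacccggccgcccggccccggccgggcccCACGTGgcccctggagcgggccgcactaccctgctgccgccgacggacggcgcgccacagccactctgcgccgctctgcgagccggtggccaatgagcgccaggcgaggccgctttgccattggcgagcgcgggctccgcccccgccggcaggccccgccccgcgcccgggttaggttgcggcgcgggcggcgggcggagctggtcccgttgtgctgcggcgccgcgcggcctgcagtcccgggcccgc
ODC1: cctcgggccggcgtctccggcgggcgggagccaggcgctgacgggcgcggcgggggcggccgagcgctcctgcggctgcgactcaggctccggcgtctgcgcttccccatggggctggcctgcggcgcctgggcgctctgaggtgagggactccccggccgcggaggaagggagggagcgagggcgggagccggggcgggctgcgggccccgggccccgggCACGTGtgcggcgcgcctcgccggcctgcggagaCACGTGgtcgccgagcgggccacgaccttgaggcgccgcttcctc
SRM held 1 CACGTG, 199 bases before the start. The ODC1 window held 2, of which 1 lay 29 bases before the start. A second ODC1 start (chr2:10448278-10448577) held no CACGTG, and the ODC1 window printed is that with the motif. Of the other motifs searched, the second start held 1 TGACNNNGC, on the opposite strand, beginning 5 bases before the start. TGACNNNGC occurred in 13.3% of all windows. CACGTG, which reads the same on both strands, occurred in 7.26% of all 35116 windows. The 3 AMD1 windows and the 1 SMS window held none of the 6 motifs searched. A match is a description of the letters and not evidence of binding.

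Catabolism held the largest change. SAT1 acetylates spermidine and spermine, which marks them for export or oxidation, and is the enzyme at which breakdown is mainly regulated. Its row read 5.55 and 5.61 on the control arrays and 8.01 and 8.03 on the ribavirin arrays. Both treated arrays were far above both controls, and the smallest difference between a treated and an untreated array was 2.41, against 0.06 between the controls and 0.02 between the treated arrays. The log2 change was 2.44 (SE 0.07, 95% interval 2.26 to 2.62, adjusted p = 0.000415), or 5.44-fold, higher in 2 of 2 treated arrays. The call held with each array left out in turn, with log2 changes of 2.41 to 2.47.

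SAT1 was the only member with more than 1 row in the table, and its 2 rows differ in annotation. The row used, with the higher mean, is annotated with a non-coding SAT1 transcript, and the other with coding transcript variant 1. SAT1 is known for such a splice form, in which an additional exon brings an early stop codon and which is not translated into the enzyme. The coding row read 4.36 and 4.44 in control and 5.28 and 5.27 with ribavirin. It was thus higher on both treated arrays too, by 0.87 (SE 0.07, 95% interval 0.68 to 1.06, adjusted p = 0.00441 in a fit of all 33444 rows with 1 symbol). Both control values were below the highest background probe set of their array (5.32 and 5.18), and so was the value of ribavirin replicate 1 (5.65), while ribavirin replicate 2 was above its own (4.80). No fold is given for the coding row, as only 1 of its 4 values was above the background of its array. The control values of the row used (5.55 and 5.61) were above the background of their arrays, but close to it. Its 5.44-fold is therefore less certain than its direction. Which exons the probes of each row cover is not given in the sources used here, so neither row can be assigned to the coding or the non-coding form alone.

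**Figure D2:**
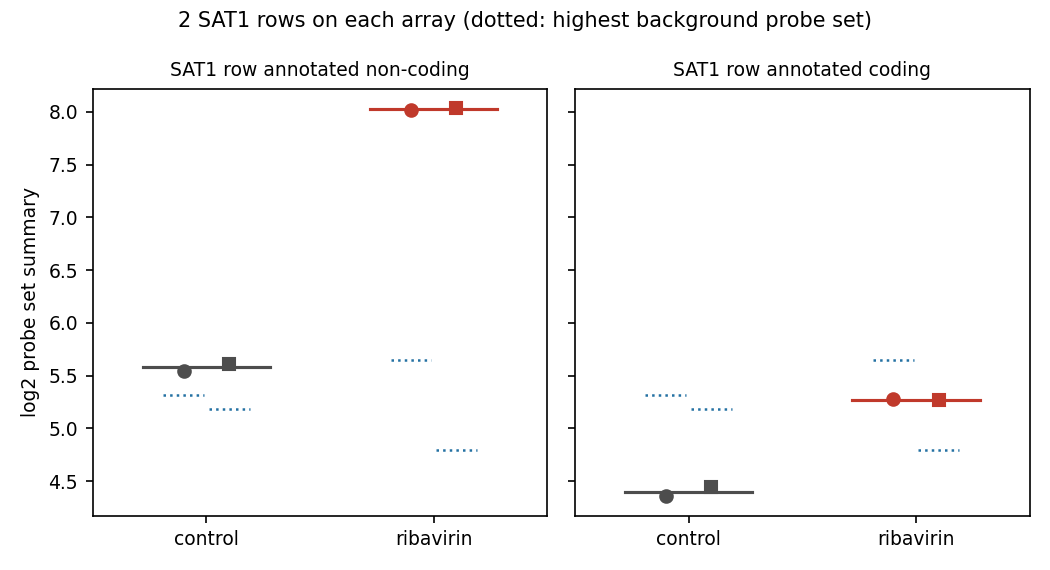
Log2 probe set summaries (y axis) of the 2 SAT1 rows on each array (x axis, group; circles array 1, squares array 2, solid lines group means, dotted lines the highest background probe set of that array). The row annotated non-coding goes from 5.58 to 8.02, above background on all arrays, and the row annotated coding from 4.40 to 5.27, above its background mark on ribavirin replicate 2 only.

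The start region of SAT1 is shown because this gene carries the main change. The window is chrX:23782923-23783222, plus strand, GRCh38.p14, from RefSeq.
SAT1: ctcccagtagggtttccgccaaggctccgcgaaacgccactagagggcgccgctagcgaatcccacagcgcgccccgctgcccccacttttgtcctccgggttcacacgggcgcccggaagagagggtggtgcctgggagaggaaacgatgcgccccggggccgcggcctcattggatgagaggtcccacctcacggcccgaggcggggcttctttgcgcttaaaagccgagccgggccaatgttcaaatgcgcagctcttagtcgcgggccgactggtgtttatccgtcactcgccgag
All letters are in lower case because none of the 6 motifs searched on both strands occurred in it. These were CACGTG (7.26% of all windows), the cyclic AMP response element TGACGTCA (1.85%), TGATGNAA, part of the composite site of ATF4 (3.62%), TGACNNNGC, the core of the antioxidant element bound by NRF2 (13.3%), TTCNNNGAA, the palindrome bound by STAT factors (7.66%), and TATAAA (11.5%). This says only that these letters are not in this window. Its GC content was 66.0%, against a median of 58.7% over all windows.

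Of the other catabolic genes, SMOX, which oxidises spermine directly to spermidine and releases hydrogen peroxide, read 5.17 and 5.20 in control and 4.91 and 5.02 with ribavirin. The treated arrays were the lower ones, and the change of -0.22 (95% interval -0.41 to -0.02, adjusted p = 0.138) did not pass. PAOX, the peroxisomal oxidase that acts on the acetylated products of SAT1, read 4.61 and 4.68 in control and 4.84 and 4.80 with ribavirin, with a change of 0.18 (95% interval -0.01 to 0.36, adjusted p = 0.183). PAOX lay in the background range in both groups and SMOX at its edge, so both values say little about their transcripts.

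Within each array, the log2 ratio of SAT1 over ODC1 was higher by 2.34 with ribavirin. With the control mean set to 0, the ratio was -0.02 and 0.02 in control and 2.33 and 2.35 with ribavirin. The 2 treated arrays differed by 0.02. The exact permutation p is again 0.333, the smallest possible, and this pair too was chosen with the values known. A ratio within an array shows unequal change only. As ODC1 had a log2 change of 0.11, this ratio mostly restates the change of SAT1 (2.44).

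**Figure D3:**
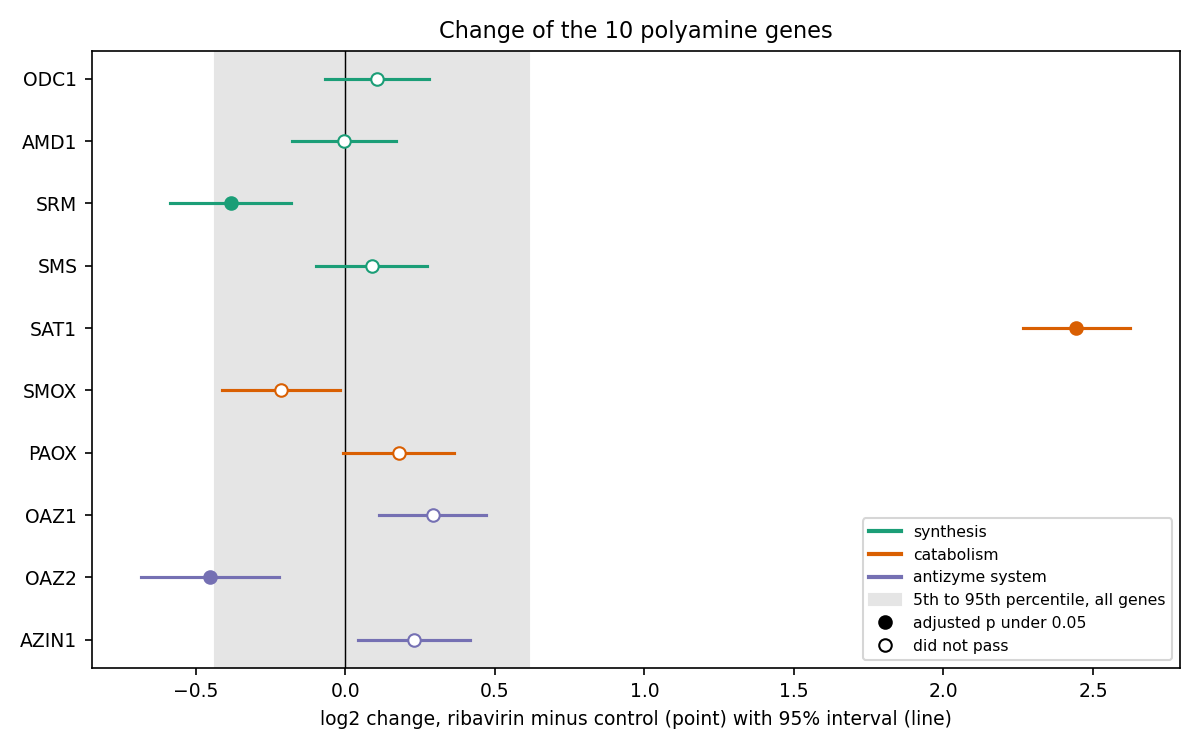
Log2 change of each polyamine gene, ribavirin minus control (x axis, log2; points), with 95% limma intervals (lines), coloured by role; filled points passed an adjusted p under 0.05, and the grey band spans the 5th to 95th percentile of all genes (-0.44 to 0.61). SAT1 at 2.44 lies outside the band, OAZ2 at -0.45 just past its lower edge, and the other 8 genes inside it.

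In the antizyme system OAZ2 fell, while OAZ1 and AZIN1 read higher with ribavirin without passing. OAZ1, the main antizyme, whose translation needs a ribosomal frameshift that polyamines promote, read 15.59 and 15.54 in control and 15.85 and 15.86 with ribavirin. Both treated arrays were higher, by 0.26 to 0.32 across pairs. The change of 0.29 (SE 0.07, 95% interval 0.11 to 0.47, adjusted p = 0.0527) did not pass, though the adjusted p was 0.0241 to 0.0496 in 5 of 12 alternative settings, none of which left out an array.

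OAZ2, a second antizyme that also binds ODC1 protein, read 6.43 and 6.54 in control and 5.95 and 6.11 with ribavirin. Both treated arrays were lower, by 0.32 to 0.59 across pairs. The log2 change was -0.45 (SE 0.09, 95% interval -0.68 to -0.22, adjusted p = 0.0312), a 1.37-fold lower level. Leaving out any 1 array ended this call: the adjusted p was 0.114 and 0.162 with control replicate 1 or 2 removed, and 0.141 and 0.0643 with ribavirin replicate 1 or 2 removed, at log2 changes of -0.53 to -0.37.

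AZIN1, an ODC1 relative without enzyme activity that binds antizyme and so spares ODC1, read 9.55 and 9.58 in control and 9.84 and 9.75 with ribavirin. The treated arrays were higher, and the change of 0.23 (95% interval 0.04 to 0.42, adjusted p = 0.109) did not pass. The 95% intervals of OAZ1 and OAZ2, not adjusted for the number of genes, do not overlap. This pair was set side by side after the values were seen, and OAZ1 did not pass. Within each array the log2 ratio of OAZ1 over OAZ2, set to a control mean of 0, was 0.08 and -0.08 in control and 0.82 and 0.67 with ribavirin, a shift of 0.74 (exact permutation p = 0.333, the smallest possible; chosen after the values were seen).

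The start regions of both antizyme genes are shown because these related genes lay on opposite sides of control. The OAZ1 window is chr19:2269236-2269535, plus strand, and the OAZ2 window chr15:64703232-64703531, minus strand (RefSeq, GRCh38.p14). Capitals mark TATAAA.
OAZ1: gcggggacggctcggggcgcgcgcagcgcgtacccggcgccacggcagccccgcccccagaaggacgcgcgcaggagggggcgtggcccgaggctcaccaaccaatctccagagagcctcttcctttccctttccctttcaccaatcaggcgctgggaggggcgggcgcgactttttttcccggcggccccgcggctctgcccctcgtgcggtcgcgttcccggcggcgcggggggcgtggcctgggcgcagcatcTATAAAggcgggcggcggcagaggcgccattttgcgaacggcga
OAZ2: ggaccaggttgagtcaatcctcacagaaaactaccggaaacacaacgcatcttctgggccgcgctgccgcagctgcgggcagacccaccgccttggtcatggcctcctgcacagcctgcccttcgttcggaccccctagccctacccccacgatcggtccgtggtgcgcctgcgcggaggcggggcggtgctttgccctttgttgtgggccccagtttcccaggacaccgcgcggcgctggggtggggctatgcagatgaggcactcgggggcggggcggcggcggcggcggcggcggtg
OAZ1 held 1 TATAAA, which begins 6 bases past the annotated start, and OAZ2 held none of the 6 motifs. The GC contents were 73.0% and 69.7%. Windows were found for 7 of the 10 genes, and AZIN1, SMOX and PAOX are named only.

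By role, the median log2 change was 0.04 in synthesis (range -0.38 to 0.11), 0.18 in catabolism (-0.22 to 2.44) and 0.23 in the antizyme system (-0.45 to 0.29). Each role had 1 gene that passed: SRM fell, SAT1 rose and OAZ2 fell. With 3 or 4 genes per role, this is near the share of genes above background that passed (32.8%, all genes 15.2%). Each role held genes with positive and genes with negative changes. The difference between roles was not tested, as the members were chosen by function and number 3 or 4 per role.

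The 3 genes whose 4 array values, each less the gene's own mean, lay closest to those of SAT1 were ATP2B1, ICOS and FAM129A, out of 9725 genes with a control mean above the background range. ATP2B1, a plasma membrane calcium pump, went from 6.14 and 6.28 in control to 8.63 and 8.70 with ribavirin, at a Euclidean distance of 0.07 log2 units over 4 arrays. ICOS, a T-cell costimulatory receptor, went from 7.81 and 7.72 to 10.15 and 10.05 (distance 0.17). FAM129A, now called NIBAN1, went from 8.74 and 8.69 to 11.35 and 11.18 (distance 0.19). With 2 groups of 2 arrays, this likeness reflects little more than the size of the change.

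Beyond the 10 genes, 33 genes that feed, drain or use the pathway were examined. Of these, 4 rose, 1 fell and 28 did not pass, and 12 lay in the background range in both groups. Rises and falls made 12.1% and 3.03% of the list (all genes 9.34% and 5.88%, genes above background 21.9% and 11%). The median log2 change was -0.02, against -0.05 over all genes and 0.07 over those above background. The list was led by SLC3A2, which is known as a subunit of amino acid exchangers and has been linked to the export of acetylated polyamines together with SAT1. SLC3A2 read 13.16 and 12.99 in control and 15.72 on both ribavirin arrays, a log2 change of 2.65 (SE 0.09, adjusted p = 0.000642). As for SAT1, the row used is annotated with a non-coding transcript, and the row annotated with a coding one rose as well, by 2.01 (adjusted p = 0.00335 among all rows). Among the other transport genes, the polyamine-transporting ATPase ATP13A3 had a log2 change of 0.47 (adjusted p = 0.0845), ATP13A2 of -0.21 (0.180) and the vesicular transporter SLC18B1 of 0.29 (0.203), and none of them passed. The other 4 of the 8 transport genes, ATP13A4, SLC22A2, SLC22A3 and SLC47A1, were in the background range in both groups.

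Genes of ornithine and arginine supply went different ways. ARG2, the mitochondrial arginase that makes ornithine, read 6.36 and 6.51 in control and 7.49 and 7.53 with ribavirin, a rise of 1.08 (SE 0.08, adjusted p = 0.00355). SLC7A1, a cationic amino acid transporter that takes up arginine, read 11.22 and 11.16 in control and 11.87 and 11.79 with ribavirin, a rise of 0.64 (SE 0.07, adjusted p = 0.00763). ALDH18A1, which makes the glutamate-derived precursor of proline and ornithine, read 11.57 and 11.38 in control and 10.50 and 10.38 with ribavirin, and so fell by 1.04 (SE 0.10, adjusted p = 0.00496). The groups did not overlap in 7 of the 8 genes of this list, these 3 among them. This held for 59.9% of all genes and 76.4% of those above background. OAT, the aminotransferase between ornithine and that precursor, had a log2 change of 0.19 (adjusted p = 0.362), ASS1 of -0.41 (0.291), ASL of -0.10 (0.419) and AGMAT of 0.08 (0.621), while ARG1 was in the background range in both groups. ASS1 is uncertain because its control arrays read 8.76 and 8.10.

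SRM and SMS release methylthioadenosine, which the salvage pathway returns to methionine. ADI1, the dioxygenase of that pathway, read 7.46 and 7.44 in control and 8.70 and 8.63 with ribavirin, a rise of 1.21 (SE 0.07, adjusted p = 0.00238). The preceding enzymes APIP (log2 change 0.38, adjusted p = 0.0529) and ENOPH1 (0.37, 0.103) were higher on both treated arrays without passing, and MRI1 had a log2 change of -0.07 (0.582). MTAP, the phosphorylase that opens the pathway, read 3.33 and 3.55 in control and 3.13 and 3.42 with ribavirin, in the background range on all 4 arrays, as did its second row. MAT2A, which makes S-adenosylmethionine outside the liver, had a log2 change of 0.27 (adjusted p = 0.0752) and its regulatory partner MAT2B of 0.13 (0.320), and the liver form MAT1A was in the background range.

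Spermidine is also used to form hypusine on the translation factor eIF5A. None of the 4 genes of this step passed, against 15.2% of all genes and 32.8% of those above background (limma). An unadjusted p under 0.05 was found for 2 of the 4, against 29.5% of all genes and 52.8% of those above background. EIF5A had a log2 change of -0.11 (adjusted p = 0.443), EIF5A2 of 0.26 (0.0951, control in the background range), the hydroxylase DOHH of -0.01 (0.940), and DHPS, which transfers the spermidine moiety, of -0.36 (0.0557). The DHPS row used is likewise annotated non-coding, and the coding row had a log2 change of -0.24 (adjusted p = 0.205 among all rows). The 5 homologues and terminal oxidases (OAZ3, AZIN2, SAT2, SATL1 and AOC1) were in the background range in both groups. None passed, against 15.2% of all genes. At an unadjusted limma p under 0.05 were 2 of 5, against 29.5% of all genes. Values in the background range say little about the transcripts.

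Without control replicate 1, and likewise without control replicate 2, SLC3A2 was the only gene of the list that passed, while the calls of ARG2 (adjusted p = 0.0554 and 0.0517), ALDH18A1 (0.0634 and 0.0517), ADI1 (0.0554 and 0.0517) and SLC7A1 (0.0696 and 0.0723) ended. SLC7A1 also missed without ribavirin replicate 1 (0.0561). In these fits few genes passed at all, 26 and 27 over all genes without a control array, and 1185 without ribavirin replicate 1. All directions were kept, with log2 changes of 1.003 to 1.15 for ARG2, -1.13 to -0.94 for ALDH18A1, 1.17 to 1.24 for ADI1 and 0.60 to 0.68 for SLC7A1.

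**Figure D4:**
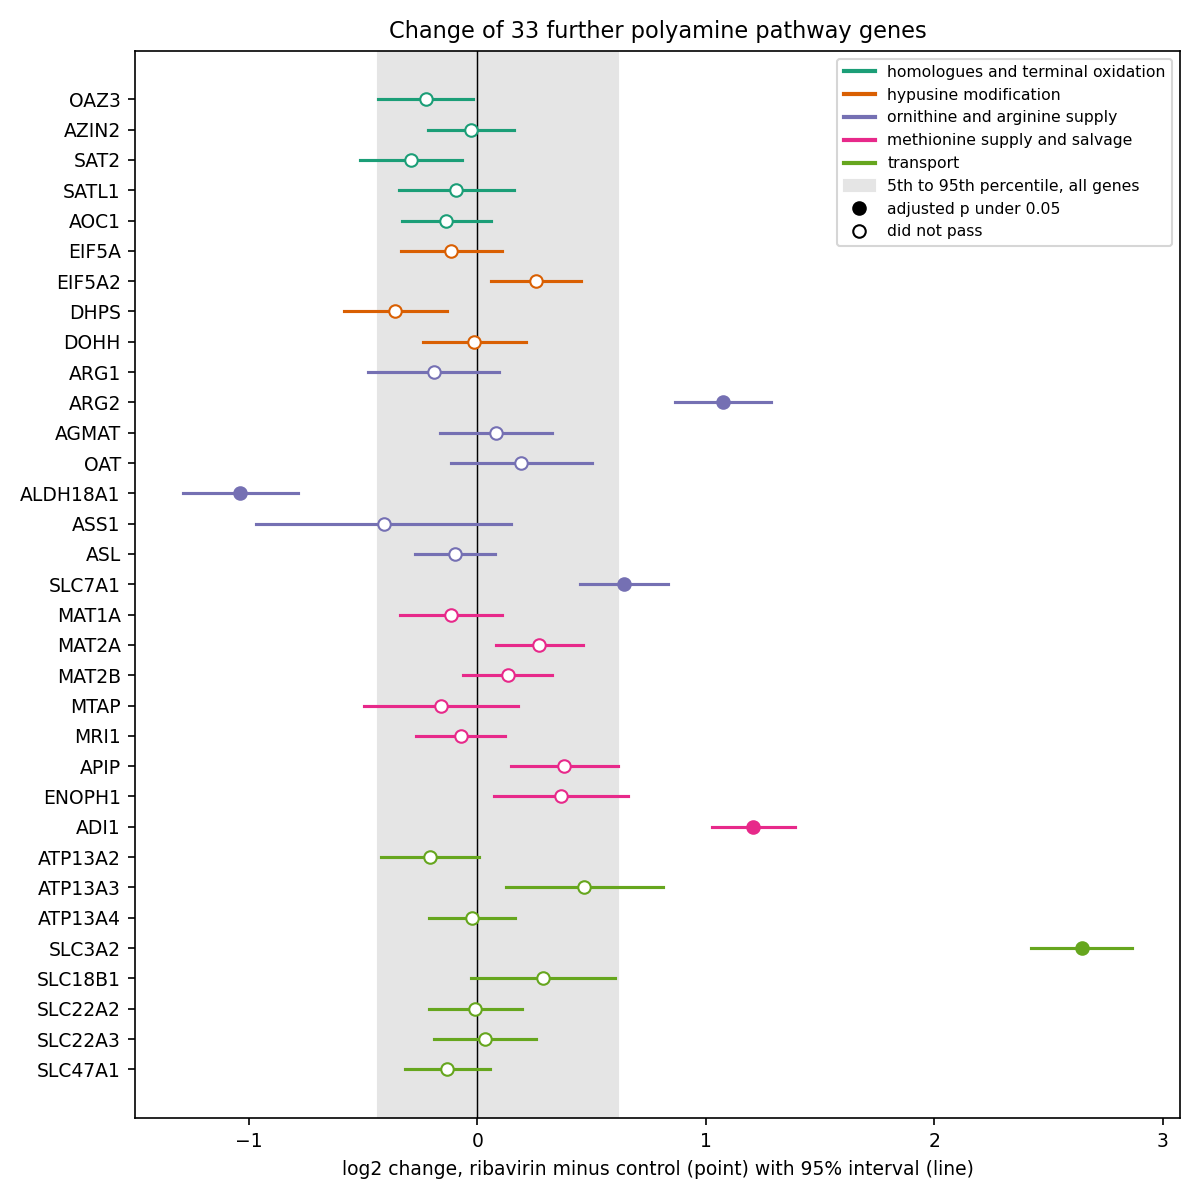
Log2 change of 33 further genes of polyamine supply, salvage, transport and use, ribavirin minus control (x axis, log2; points), with 95% limma intervals (lines), coloured by list; filled points passed an adjusted p under 0.05 and the grey band spans the 5th to 95th percentile of all genes. SLC3A2 (2.65), ADI1 (1.21), ARG2 (1.08) and SLC7A1 (0.64) lie above the band and ALDH18A1 (-1.04) below it.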

How the data were processed

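The authors deposited log2 summaries per probe set, and the table's name gives SST-RMA as the method. Tools named per the submitters' processing notes are RMA and Affymetrix Expression Console, and the design text adds the Exon Array Computational Tool, with versions not given in the sources used here. How far such processing compresses or stretches changes, near background or elsewhere, was not tested. A second deposited table held identical log2 values (largest difference 0).

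Transcript clusters with 1 symbol were kept, and a gene with several rows was represented by that of highest mean across all 4 arrays. Groups came from the sample titles. Ribavirin was compared with control over 25847 genes with limma 3.58.1 in R 4.3.3 (lmFit, eBayes, no covariate, 2 residual and 3.19 prior degrees of freedom), two-sided, with Benjamini-Hochberg adjustment and a threshold of 0.05. The steps were tested on simulated data. Alternatives were an intensity trend, robust moderation, quantile normalization, median centring, leaving out dim genes, averaging rows, a replicate block, the second table and each array left out. The other row of a gene was added after the values were seen. The members, lists and tests were chosen with earlier results of these data known. Named were all members, every pathway gene past the threshold with the others given to account for the list, and 3 genes most like SAT1. Some genes of the lists are not reported here. Start regions come from RefSeq (GRCh38.p14). As arrays have no depth, their number and the background probe sets limit precision.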

Additional observations from a re-analysis of the deposited data

How the results depend on the processing

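The rise of SAT1 kept its direction and its call in all 13 alternatives (log2 change 0.87 to 2.51, adjusted p 0.000139 to 0.0484, the lowest change being that of the other row). SRM passed in 6 of 12 alternatives and OAZ2 in 8 of 12, both with the same direction throughout (-0.50 to -0.32 and -0.54 to -0.37). OAZ1 passed in 5 of 12. The second table holds identical values, so its outcome was fixed in advance and adds no support to these counts. Averaging rows leaves the values of every member but SAT1 unchanged. AMD1, which did not pass anywhere, changed sign with arrays centred on their median (0.060) and without control replicate 2 (0.000195, the highest with 1 array left out, the lowest being -0.009315). Higher members numbered 2 in place of 1 with an intensity trend, quantile normalization, arrays centred on their median, dim genes left out and clusters averaged, each time by OAZ1. Lower members numbered 1 in place of 2 with median centring and with the replicate block, where SRM missed the threshold. Array numbers were not treated as pairs, as no label ties same-numbered arrays and the deviations of same-numbered arrays correlated at 0.051 across genes. With the replicate block 3340 genes passed against 3934, and SRM had an adjusted p of 0.0599. Pathway genes past the threshold numbered 11 in place of 5 with dim genes left out, where p was adjusted over 12924 genes. Calls over all genes rose in that setting too, to 4904 of 12924 from 3934 of 25847. With each array left out in turn, 26 to 2001 genes passed, 22 to 1430 higher and 4 to 571 lower. Called members then numbered 1, higher members 1 and lower members 0 in each case, and pathway genes 1 to 5. The share of calls that were upward was 61.3%, against 73.7% with median centring and 49.3% with quantile normalization. PAOX, SMOX and the coding SAT1 row are limited by background.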
